A study of Mus musculus with 4 samples.

Results

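The genes described here encode fibrillar collagens and other parts of the mesenchymal matrix, together with some surface and nuclear markers of mesenchymal cells. The set was given as 38 gene symbols, and 36 of them had a probe set of their own among the 18820 genes compared. Loxl3 shares its probe sets with Htra2 and Fbn1 was matched to none, so neither is described. Values are log2 expression from Affymetrix Mouse Gene ST arrays, 1 array per sample, and a difference of 1 on this scale is a 2-fold difference. The samples were mouse embryonic stem cells, 2 labelled KAP_WT (genotype wild type) and 2 labelled KAP_KO (genotype KAP1 fl/fl). KAP1 is the protein of Trim28, a co-repressor brought to chromatin by zinc finger proteins. All 4 samples are labelled with 4-hydroxytamoxifen, given for 24 h and followed by 48 h without it, and all cells grew on irradiated embryonic fibroblasts. The labels do not say whether those feeder cells were removed before RNA extraction, which Cre line was used, or whether the wild-type cells were a separate line or clone. With bulk RNA, more cells of a type and more RNA per cell cannot be told apart.

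Fibrillar collagens are secreted as triple-helical procollagens, trimmed at both ends outside the cell, and assembled into fibrils that lysyl oxidases cross-link. Fibronectin, fibrillins, elastin, fibulins and small leucine-rich proteoglycans organise these fibrils and bind growth factors. Fibroblasts, the cells used as feeders, are the classical source of this matrix, while undifferentiated stem cells are known rather for basement membrane components.

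As a check of the labels, Trim28 read 11.29 and 11.37 for the wild type against 8.97 and 8.92 for the knockout, 5.22-fold lower in the knockout (limma adjusted p = 3.39e-05). All 9 measured stem cell markers lay above the array medians on every array, and 6 of them fell in the knockout, by at most 1.11 on the log2 scale (Esrrb). Most of these 6 calls, like most lower calls over all genes, were lost without wild-type replicate 1 or without replicate 2. Esrrb was among those lost, with changes of -1.13 and -1.09 in these fits. The median over the tested genes was 5.46 and 5.48 for the wild type, against 5.66 and 5.63 for the knockout. The median change over all tested genes was -0.05. With array medians subtracted, 2065 genes passed as higher and 6392 as lower, against 2676 and 2395 on the deposited scale, and the matrix genes gave 20 higher and 1 lower. With 2 arrays per group, p-values rest on the spread between these samples and on a spread estimated over all genes. The number of arrays limits the precision.

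Most of the measured matrix genes were higher in the knockout. Of the 36, 24 rose and 1 fell at an adjusted p under 0.05 (limma, Benjamini-Hochberg over all genes), where 14.2% of all tested genes rose, 12.7% fell and 26.9% passed in either direction. The median change of the 36 genes was 0.80. Of the rises, 15 reached 2-fold, against 4.44% of all tested genes. The knockout arrays lay above both wild-type arrays for 27 of the 36 (26.6% of all tested genes) and below both for 2, Col5a3 and Fap (38.6% of all tested genes). The rises reached from 0.36 for Col6a1 to 4.33 for Cthrc1. The 11 genes that did not pass were Fn1, Fbln1, Col6a2, Col6a3, Col14a1, Loxl1, Eln, Lum, Thy1, Fap and S100a4. Levels were low for many: 27 of the 36 lay below the array median on both wild-type arrays, and 16 did so on all 4 arrays, where 49.2% and 46.1% of all tested genes did. No detection calls were used, so how far such values stand above background is unknown and fold changes hold for array values only.

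**Figure D1:**
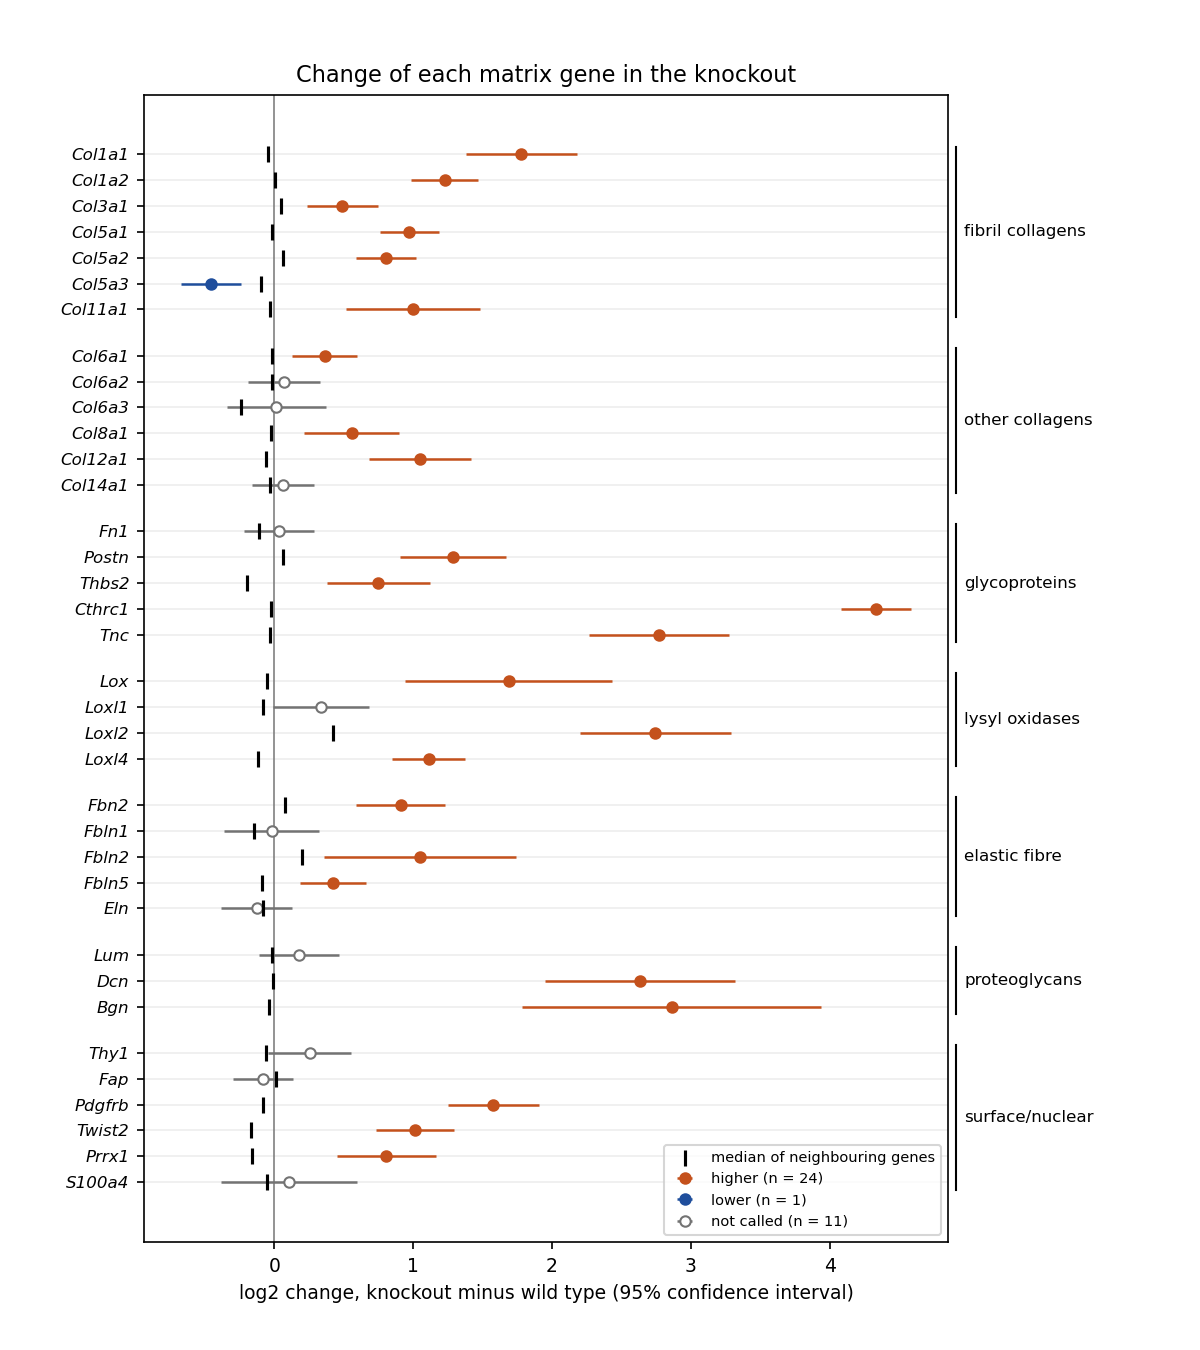
Log2 change of each of the 36 measured matrix genes (knockout minus wild type, horizontal axis) with its 95% confidence interval from limma, arranged by role; orange marks the 24 genes that rose, blue the 1 that fell and open circles the 11 that did not pass, and black ticks give the median change of up to 40 neighbouring genes. Cthrc1 stands furthest right at 4.33, and the intervals of Fn1, Fbln1, Col6a2 and Col6a3 span 0.

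Promoter sequences are shown for 3 genes that rose in different roles (biglycan, tenascin C and a chain of collagen I) and for Fbln1, which did not pass, as examples of the sequence ahead of these genes. Each is the 200 bases before the gene's most upstream start in RefSeq (GRCm38.p6), read 5′ to 3′ on the gene's strand; overlapping matches are kept, and capitals mark the TATA box (TATAAA), the CCAAT box and the GC box (GGGCGG) on either strand. The windows are chrX:73483401-73483600 (plus strand) for Bgn, chr4:64047016-64047215 (minus strand) for Tnc, chr6:4505418-4505617 (plus strand) for Col1a2 and chr15:85205749-85205948 (plus strand) for Fbln1.
Bgn: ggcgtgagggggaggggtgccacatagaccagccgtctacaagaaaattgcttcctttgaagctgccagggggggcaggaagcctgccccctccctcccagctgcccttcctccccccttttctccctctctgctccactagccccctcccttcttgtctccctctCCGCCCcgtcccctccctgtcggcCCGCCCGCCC
Tnc: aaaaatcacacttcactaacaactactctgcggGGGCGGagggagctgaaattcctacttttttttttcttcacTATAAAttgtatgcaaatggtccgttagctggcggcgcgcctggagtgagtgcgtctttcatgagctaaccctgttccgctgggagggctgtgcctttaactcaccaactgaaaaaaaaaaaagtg
Col1a2: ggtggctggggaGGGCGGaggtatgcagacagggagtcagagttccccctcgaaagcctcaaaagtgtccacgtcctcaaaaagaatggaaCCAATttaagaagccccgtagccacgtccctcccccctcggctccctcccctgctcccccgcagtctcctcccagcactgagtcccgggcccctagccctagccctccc
Fbln1: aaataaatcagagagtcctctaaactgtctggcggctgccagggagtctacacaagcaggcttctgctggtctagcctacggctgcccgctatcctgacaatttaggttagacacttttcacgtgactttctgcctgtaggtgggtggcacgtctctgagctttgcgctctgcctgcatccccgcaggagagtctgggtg
The RefSeq table held a promoter for 21 of the 38 genes, of which 15 rose. Windows ran from 250 bases before to 50 after the start and were searched on both strands. TATAAA occurred in 4 of the 21, CCAAT in 7 and GGGCGG in 13. Of 32851 mouse promoter windows, 13.6%, 37.4% and 35.7% held them. Those windows count every listed start, while the 21 genes gave 1 window each, at the most upstream start. TATAAA was found in 3 of the 15 that rose and 1 of the 6 others, CCAAT in 6 and 1, and GGGCGG in 10 and 3. The 6 others include Fbn1, which holds a GC box but was not measured and so has no outcome. The printed examples do not show this split for the GC box: Col6a2, which did not pass, and Col5a3, which fell, hold one, while Col3a1, Col6a1, Postn, Thbs2 and Prrx1 rose and hold none. The AP-1 motif TGANTCA was found in 1 (Col6a1), the TEAD motif GGAATG in 2 (Col3a1 and Prrx1) and the CArG box of SRF in 0, where 7.81%, 14.7% and 1.63% of all windows hold them. These are matches of letters within short windows and no measure of binding.

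The fibril-forming collagens moved in both directions. Col1a1, the chain present in 2 copies in each collagen I molecule, read 6.13 and 5.63 for the wild type against 7.75 and 7.57 for the knockout. Its level rose by 1.78 (SE 0.17, limma adjusted p = 6.04e-04), and its wild-type replicates differed by 0.49. Col1a2, the partner chain, read 5.11 and 5.03 for the wild type against 6.38 and 6.21 for the knockout, a rise of 1.23 (95% confidence interval 0.99 to 1.47) that overlaps the interval of Col1a1 (1.38 to 2.18); the difference between the chains was not tested. The mean levels of Col1a1 were 5.88 ± 0.35 and 7.66 ± 0.13 (SD, n = 2 each), and those of Col1a2 were 5.07 ± 0.06 and 6.30 ± 0.12. Neither group overlapped the other for either chain. Col3a1, whose product co-assembles with collagen I in skin and vessel walls, read 4.53 and 4.65 for the wild type against 4.98 and 5.17 for the knockout. It rose by 0.49 (adjusted p = 0.0163), a call lost without wild-type replicate 1 (adjusted p = 0.110), wild-type replicate 2 (0.0689) or knockout replicate 2 (0.0741).

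Collagen V and XI chains start and limit fibril growth. Col5a1 read 5.08 and 5.12 for the wild type against 6.05 and 6.10 for the knockout and Col5a2 read 3.92 and 4.01 for the wild type against 4.75 and 4.78 for the knockout. The replicates of both lay close together and the rises were 0.97 (SE 0.09) and 0.80 (SE 0.09), with adjusted p = 5.41e-04 and 0.00119 in limma. A second Col5a1 probe set read 4.54 and 4.52 for the wild type against 4.54 and 4.65 for the knockout and did not pass (change 0.07, adjusted p = 0.645 over all probe sets), so the rise of Col5a1 rests on 1 of its 2 probe sets. Col5a3, the third chain of this family, was the only measured member that fell. It read 4.97 and 4.92 for the wild type against 4.45 and 4.52 for the knockout, a fall of 0.46 (95% confidence interval -0.68 to -0.24, adjusted p = 0.0111), which missed the threshold without wild-type replicate 1 (adjusted p = 0.0739) or replicate 2 (0.0600). Col11a1 read 4.90 and 4.82 for the wild type against 5.53 and 6.19 for the knockout; the knockout replicates differed by more than 0.5, yet both lay above the wild type. Its rise of 1.00 (adjusted p = 0.0121) was likewise lost without either wild-type replicate (adjusted p = 0.0923 and 0.113).

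Of the 6 other collagen genes 3 rose, all from low levels. The collagen VI genes encode the chains of a beaded microfibril around cells, and they differed in outcome. Col6a1 read 4.66 and 4.51 for the wild type against 4.95 and 4.94 for the knockout, a rise of 0.36 (adjusted p = 0.0349) that was lost when any 1 array was left out (adjusted p up to 0.161). Col6a2, whose gene lies near that of Col6a1 on chromosome 10, read 5.20 and 5.37 for the wild type against 5.43 and 5.27 for the knockout, and the interval of its change was -0.19 to 0.33. Col6a3 read 4.30 and 4.45 for the wild type against 4.60 and 4.18 for the knockout (-0.34 to 0.37). The groups overlapped for both. Col12a1, a collagen that coats fibrils and links them, read 3.95 and 4.06 for the wild type against 4.83 and 5.28 for the knockout. It rose by 1.05 (SE 0.15, limma adjusted p = 0.00342), and without wild-type replicate 1 the adjusted p was 0.0536. Col14a1, of the same fibril-associated class, read 4.16 and 4.07 for the wild type against 4.22 and 4.13 for the knockout, with an interval of -0.17 to 0.29. Col8a1, a short-chain network collagen, read 4.72 and 4.32 for the wild type against 5.13 and 5.02 for the knockout. It rose by 0.56 (adjusted p = 0.0295); without wild-type replicate 2 the change was 0.36 (adjusted p = 0.125), and without knockout replicate 1 the adjusted p was 0.0828.

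Among the adhesive and matricellular glycoproteins, 4 of 5 rose and fibronectin did not pass. Cthrc1, a secreted collagen triple helix repeat protein, read 5.68 and 5.57 for the wild type against 9.86 and 10.05 for the knockout. Its mean level went from 5.63 ± 0.08 in the wild type to 9.96 ± 0.13 in the knockout (SD, n = 2 each), a rise of 4.33 (SE 0.11, limma adjusted p = 1.63e-05) or 20.2-fold, the largest of the 36. Tnc encodes tenascin C, a protein of embryonic and healing matrix, and read 4.61 and 3.94 for the wild type against 7.14 and 6.95 for the knockout. The wild-type replicates differed by 0.67, but both knockout arrays lay far above them, and Tnc rose by 2.77 (SE 0.21, adjusted p = 2.60e-04). Postn, the gene of periostin, a matrix protein of fibrous tissue, read 3.74 and 3.45 for the wild type against 5.08 and 4.69 for the knockout, a rise of 1.29 (adjusted p = 0.00168) that left it below the array medians. Thbs2, a thrombospondin that restrains angiogenesis, read 4.82 and 4.94 for the wild type against 5.85 and 5.40 for the knockout. It rose by 0.75 (adjusted p = 0.0130), a call lost without wild-type replicate 1 (adjusted p = 0.113) or replicate 2 (0.0843). Fn1, the gene of fibronectin, a major product of fibroblasts that other cells also make, read 10.97 and 10.79 for the wild type against 10.97 and 10.86 for the knockout. The 4 arrays lay within 0.2 of each other, and the 95% confidence interval of the change was -0.22 to 0.29.

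**Figure D2:**
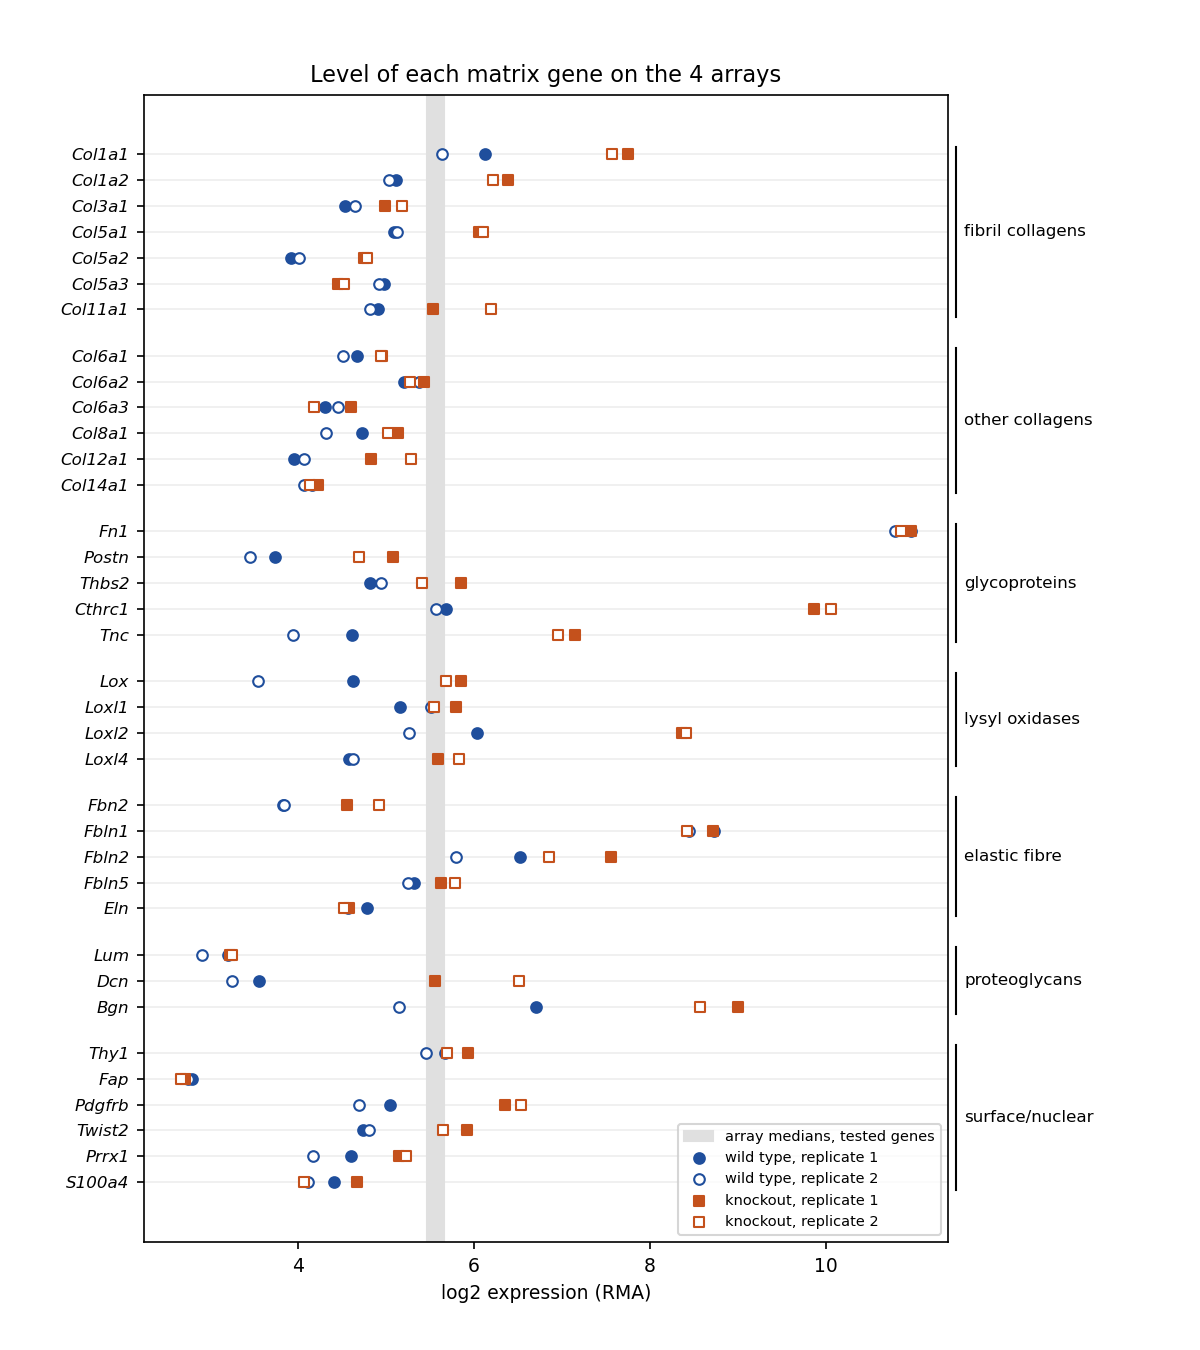
Log2 expression (horizontal axis) of each measured matrix gene on the 4 arrays, by role; blue circles are the wild-type and orange squares the knockout replicates, filled for replicate 1 and open for replicate 2, and the grey band spans the array medians of the tested genes (5.46 to 5.66). The wild-type replicates lie apart for Bgn, Lox, Loxl2, Fbln2 and Tnc, with replicate 1 the higher each time.

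Lysyl oxidases oxidise lysines of collagen and elastin so that cross-links form, and 3 of the 4 measured genes rose. Loxl2, which also acts on basement membrane collagen, read 6.03 and 5.26 for the wild type against 8.37 and 8.41 for the knockout. It rose by 2.74 (SE 0.23, limma adjusted p = 3.77e-04), 6.70-fold, with nearly equal values on the knockout arrays. Its other probe set read 4.37 and 4.55 for the wild type against 4.14 and 4.41 for the knockout, a change of -0.18 (adjusted p = 0.354 over all probe sets), so the 2 probe sets of Loxl2 disagree. Lox, the founding member, read 4.63 and 3.54 for the wild type against 5.86 and 5.69 for the knockout, and its wild-type replicates differed by 1.09. The rise of 1.69 (adjusted p = 0.00862) ranged from 1.14 to 2.23 when single arrays were left out, and passed each time. Loxl4 rose by 1.11 (adjusted p = 7.43e-04), from 4.58 and 4.62 for the wild type against 5.58 and 5.83 for the knockout; its second probe set rose too, by 0.53 (adjusted p = 0.0329 over all probe sets). Loxl1, linked to elastic fibre upkeep, read 5.16 and 5.51 for the wild type against 5.79 and 5.54 for the knockout and missed the threshold (95% confidence interval -0.01 to 0.68).

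Of 5 measured elastic fibre genes 3 rose. Fbn2, the fibrillin of early development, read 3.82 and 3.84 for the wild type against 4.56 and 4.92 for the knockout, a rise of 0.91 (SE 0.13, limma adjusted p = 0.00332) at levels below the array medians. Fbln2, a fibulin that bridges elastic fibres and basement membranes, read 6.52 and 5.80 for the wild type against 7.56 and 6.85 for the knockout. Its replicates lay farther apart within each group (by 0.72 in the wild type) than the lower knockout value lay above the higher wild-type value. Its rise of 1.05 (adjusted p = 0.0377) was lost without wild-type replicate 1 (adjusted p = 0.0561), wild-type replicate 2 (change 0.69, adjusted p = 0.225) or knockout replicate 1 (change 0.69, adjusted p = 0.0959). Fbln5, needed for elastic fibre assembly, read 5.31 and 5.25 for the wild type against 5.62 and 5.78 for the knockout. It rose by 0.42 (adjusted p = 0.0219), a call lost without wild-type replicate 1 (0.0880), wild-type replicate 2 (0.123) or knockout replicate 2 (0.106). Fbln1, the fibulin whose promoter is printed above, read 8.73 and 8.44 for the wild type against 8.71 and 8.42 for the knockout, so that its groups overlapped almost entirely (95% confidence interval -0.36 to 0.32). Eln, the elastin gene, read 4.79 and 4.57 for the wild type against 4.58 and 4.52 for the knockout (change -0.13, adjusted p = 0.441).

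The small leucine-rich proteoglycans divided sharply. Bgn, the gene of biglycan, which binds collagen and growth factors, read 6.71 and 5.14 for the wild type against 9.01 and 8.57 for the knockout. The wild-type replicates differed by 1.56, more than for any other measured member, and the rise of 2.86 (SE 0.45, limma adjusted p = 0.00457) ran from 2.08 without wild-type replicate 2 to 3.64 without replicate 1. Dcn, the gene of decorin, which wraps collagen fibrils, read 3.55 and 3.25 for the wild type against 5.56 and 6.51 for the knockout. It rose by 2.64 (SE 0.29, adjusted p = 0.00101), 6.22-fold, although the knockout replicates lay almost 1 apart. Lum, the gene of lumican and a neighbour of Dcn on chromosome 10, read 3.20 and 2.91 for the wild type against 3.22 and 3.24 for the knockout. All 4 values lay below 4, and the change of 0.18 did not pass (95% confidence interval -0.11 to 0.46).

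The surface and nuclear markers of mesenchymal cells gave 3 rises among 6. Pdgfrb, the PDGF receptor of pericytes and fibroblasts, read 5.04 and 4.69 for the wild type against 6.35 and 6.53 for the knockout, a rise of 1.58 (SE 0.14, limma adjusted p = 4.46e-04). Twist2, a basic helix-loop-helix factor of mesenchyme and dermis, read 4.73 and 4.81 for the wild type against 5.92 and 5.64 for the knockout, a rise of 1.01 (adjusted p = 0.00127). Prrx1, a homeobox factor of limb and craniofacial mesenchyme, read 4.60 and 4.16 for the wild type against 5.15 and 5.22 for the knockout, a rise of 0.81 (adjusted p = 0.00873) below the array medians. The groups did not overlap for any of these 3. The surface or cytoplasmic markers Thy1, S100a4 and Fap, often used for fibroblasts, did not pass. Thy1 read 5.67 and 5.45 for the wild type against 5.93 and 5.70 for the knockout (95% confidence interval -0.04 to 0.55), S100a4 4.41 and 4.11 for the wild type against 4.67 and 4.06 for the knockout (-0.39 to 0.59) and Fap 2.79 and 2.74 for the wild type against 2.71 and 2.66 for the knockout (-0.30 to 0.13). Fap lay below 3 on every array.

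The wild-type replicates were not alike in this gene set. Replicate 1 exceeded replicate 2 by more than 0.5 for 5 of the 36 genes (Bgn, Lox, Loxl2, Fbln2 and Tnc), where 0.972% of all tested genes did so, and replicate 2 exceeded replicate 1 by that much for 0. Each of these 5 genes also rose in the knockout. Fewer of the 36 genes passed as higher with 1 wild-type array left out than with 1 knockout array left out, and the same held over all tested genes. The median change of the 36 was 0.83 without wild-type replicate 1 and 0.75 without replicate 2, against 0.75 without either knockout replicate in turn. Genes outside the set with the same difference included Thbs1, a matrix gene (7.50 and 5.17 for the wild type against 10.37 and 10.74 for the knockout), Acta2, the smooth muscle actin gene (6.78 and 4.64 for the wild type against 10.27 and 10.46 for the knockout), Plod2 (7.54 and 6.93 for the wild type against 8.88 and 9.30 for the knockout) and P4ha1 (8.19 and 7.44 for the wild type against 8.64 and 8.45 for the knockout). They were singled out after their values were seen. Whether the content of feeder or other cells differed between the wild-type cultures was not tested. Between the knockout replicates, Dcn, Col11a1, Fbln2 and S100a4 differed most, with the higher value in replicate 2 for the first and second and in replicate 1 for the others.

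**Figure D3:**
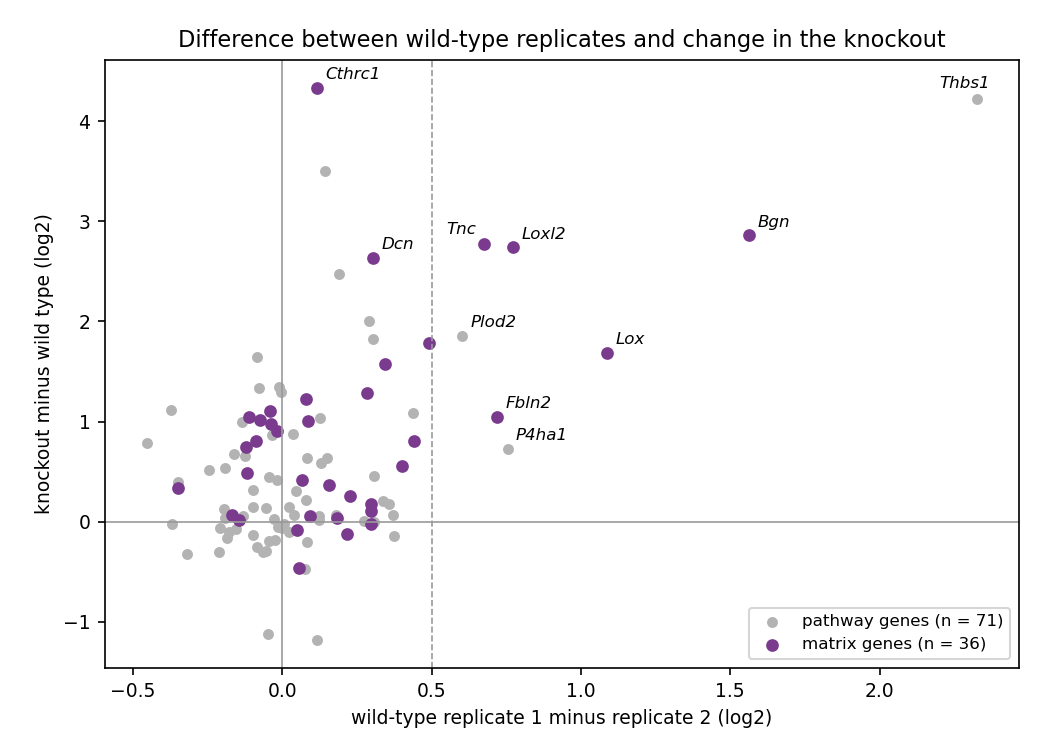
Difference between the wild-type replicates (replicate 1 minus replicate 2, log2, horizontal axis) against the change in the knockout (log2, vertical axis) for the 36 measured matrix genes (purple) and 71 pathway genes (grey); the dashed line marks 0.5. Bgn, Lox, Loxl2, Fbln2 and Tnc lie right of the line and above 0, with Thbs1 furthest right among the pathway genes, while Cthrc1 rises most with a replicate difference of 0.12.

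Each gene was also set beside its neighbours on the chromosome. The median change of the nearest tested genes, up to 20 on each side, was 0.42 around Loxl2 on chromosome 14 and 0.20 around Fbln2 on chromosome 6. For the other measured members it lay between -0.24 (Col6a3) and 0.07 (Fbn2). The rise of Loxl2, 2.74, was larger than that of its neighbourhood, and the rise of Cthrc1 stood beside a neighbourhood median of -0.02. Bmp1, also on chromosome 14, had a neighbourhood median of 0.49. How far such regional shifts enter single changes was not tested.

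Genes that act with these proteins were taken from 4 lists with 71 measured members. Of these, 28 rose and 3 fell (39.4% and 4.23%), where 14.2% of all tested genes rose and 12.7% fell. The median change of the 71 was 0.14. With array medians subtracted, 24 rose and 11 fell, where 2065 of all 18820 tested genes rose and 6392 fell. Among 24 genes of collagen folding, modification and processing, 11 rose and 2 fell; 7 passed as higher without wild-type replicate 2 and also 7 without knockout replicate 2. Bmp1, the gene of the proteinase that removes the C-propeptide of procollagen and activates lysyl oxidase, read 5.81 and 5.66 for the wild type against 8.99 and 9.48 for the knockout, a rise of 3.50 (SE 0.16, limma adjusted p = 6.03e-05). Plod2, a lysyl hydroxylase that shapes cross-links, rose by 1.86 (adjusted p = 0.00135), and Serpinh1, the collagen chaperone HSP47, by 1.34 (adjusted p = 5.23e-04). Pcolce, the enhancer of C-propeptide removal by Bmp1, went the other way. It read 9.86 and 9.74 for the wild type against 8.63 and 8.62 for the knockout, a fall of 1.18 (adjusted p = 3.03e-04). The other fall was that of the N-propeptidase gene Adamts14 (-1.12), named after its value was seen and lost without wild-type replicate 2 (adjusted p = 0.0527).

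Over all tested genes, 14.2% rose and 12.7% fell at the threshold. Among 14 measured genes of other interstitial and cartilage collagens, 1 rose and 0 fell, with a median of -0.07. The riser was Col2a1, the cartilage fibril collagen, which read 5.29 and 5.54 for the wild type against 5.89 and 5.98 for the knockout (adjusted p = 0.0156). Its call was lost without wild-type replicate 1 (adjusted p = 0.0902) or knockout replicate 2 (0.0574). Of 23 measured genes of other interstitial matrix proteins 11 rose and 0 fell (median 0.40). They were led by Thbs1 (4.22), a thrombospondin that can activate latent TGF-beta, Efemp1 (2.47), a fibulin, Mfap2 (2.00), a microfibril protein, and Ccdc80 (1.82). The proteoglycan genes Ogn, Omd, Aspn, Prelp and Fmod, relatives of Lum and Dcn, had changes between -0.0024 and 0.06 at values under 4. Podn, another leucine-rich proteoglycan gene of this list, rose by 0.67 (limma adjusted p = 0.00663), and by 0.59 without wild-type replicate 1. These proteoglycan genes are named after their values were seen. Among 10 collagen receptor genes 5 rose and 1 fell. Mrc2, an uptake receptor for collagen, rose by 1.64, the integrin subunit genes Itgb1 and Itga1 by 1.34 and 1.12 and the receptor kinase gene Ddr1 by 1.29; Itga10 fell by 0.47. The fall of Itga10 was lost without wild-type replicate 1 (adjusted p = 0.114), wild-type replicate 2 (0.0849) or knockout replicate 1 (0.0765), and the change of Itgb1 was 0.64 when its probe sets were averaged.

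**Figure D4:**
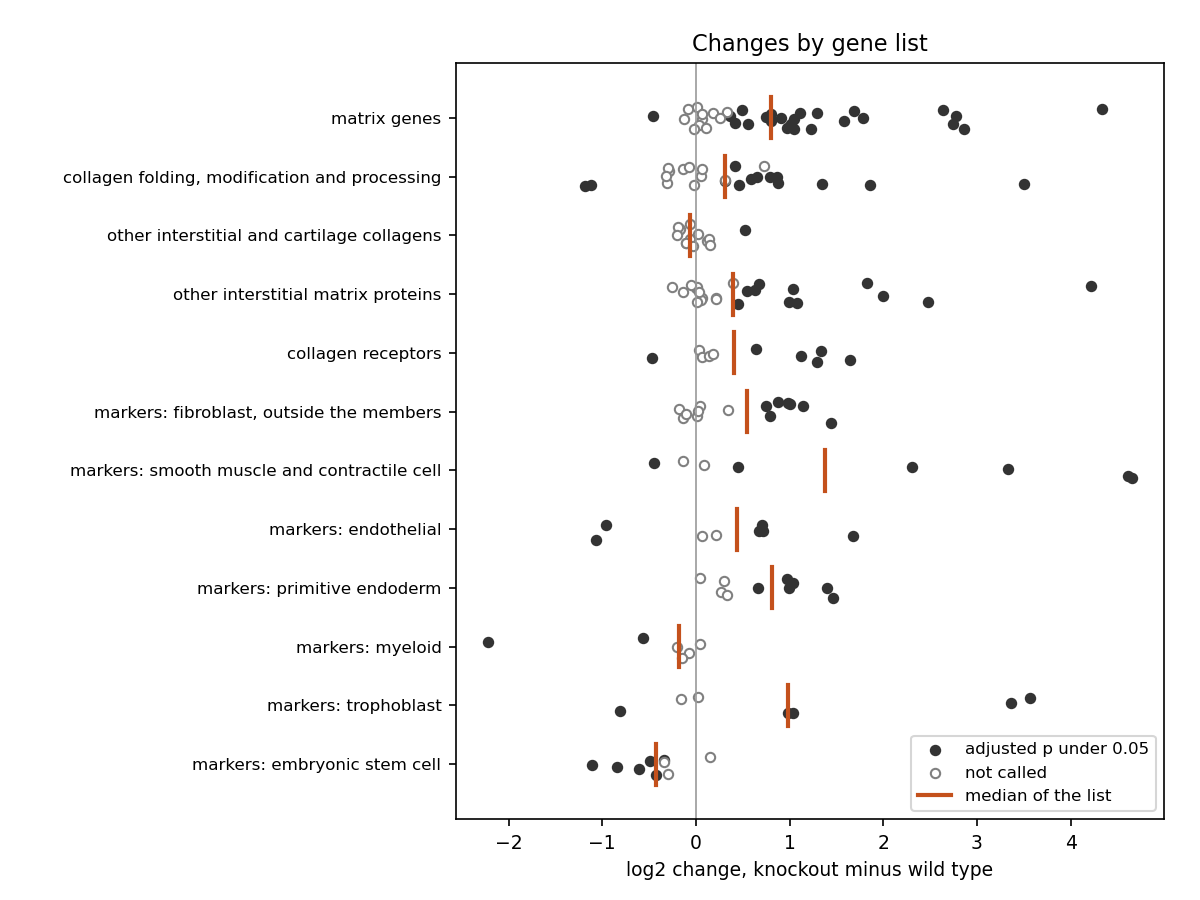
Log2 change (knockout minus wild type, horizontal axis) of every measured gene in the matrix set, the 4 pathway lists and the 7 marker lists (vertical axis); filled points passed an adjusted p of 0.05 in limma, open points did not, and orange bars are list medians. The matrix set has a median of 0.80 and the other collagens one of -0.07.

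Markers of other cells moved in the same samples, where 14.2% of all tested genes rose and 12.7% fell. Of 14 measured fibroblast markers outside the set 7 rose and 0 fell (median 0.54), and 4 passed as higher without wild-type replicate 2, where Twist1, Snai2 and Cd44 did not (adjusted p = 0.0629, 0.0912 and 0.0628). Vim (1.44), Twist1 (1.14), Pdgfra (1.01) and Tbx15 (0.98) led, while Meox1, Meox2, Tcf21, Tbx18, Ccl7, Islr and Clec3b did not pass, with changes between -0.18 and 0.34. The summed linear level of these 14 markers was 1455 and 1289 for the wild type against 3124 and 3513 for the knockout. Most of that sum was Vim, and without it the other 13 summed to 325 and 316 against 459 and 492. For the 8 contractile markers, of which 5 rose and 1 fell, the sums were 465 and 397 against 2453 and 2864 (355 and 372 against 1214 and 1459 without Acta2). Here Acta2 (4.65), Tagln (4.61), Myl9 (3.33) and Cnn1 (2.30) led, and the late smooth muscle gene Myh11 did not pass (-0.14). Primitive endoderm markers had 6 rises among 10, led by Gata4 (1.47), with sums of 1218 and 1196 against 1949 and 2277 (816 and 799 against 1263 and 1387 without Lamb1). Gata6 (0.26), Sox7 (0.05), Lama1 (0.30) and Amn (0.34) did not pass. The calls of Sox17, Thbd and Cubn were lost without wild-type replicate 2, where their changes were 0.99, 0.55 and 0.94. Trophoblast markers had 4 rises and 1 fall among 7, led by Krt8 (3.56), and their sums were 877 and 935 against 4458 and 5268 (687 and 676 against 2121 and 2328 without Krt8). Krt18, another keratin gene, rose by 3.36 and supplied most of the knockout sums left without Krt8. Cdx2 and Hand1 rose by 1.03 and 0.98 at lower levels, and Eomes (0.02) and Elf5 (-0.16) did not pass. Endothelial markers were mixed, with 4 rises and 2 falls among 8 and sums of 573 and 559 against 450 and 397. Those sums rest largely on Pecam1 (-0.96) and Tek (-1.07), the pair that fell, and are lower in the knockout although the list's median change was 0.44; without Pecam1 they were 254 and 218 against 265 and 242. The risers Cdh5, Kdr, Tie1 and Cldn5 lay between 3.55 and 5.96, and 2 of the 4 passed without wild-type replicate 1 and 2 without replicate 2. Myeloid markers had 0 rises and 2 falls among 6, with Ptprc between 3.57 and 3.78, and sums of 1351 and 1188 against 383 and 386. Laptm5 alone, which fell by 2.22, made up most of the wild-type sums, and without it the other 5 summed to 210 and 225 against 159 and 159. The other fall was that of Cd68 (-0.56), lost without wild-type replicate 2 (adjusted p = 0.0565), and the remaining 4 had changes between -0.21 and 0.04. The single falls of a contractile and a trophoblast marker, Des and Tfap2c, were lost without either wild-type replicate in turn, and that of Des also without knockout replicate 2. Pecam1, Tek, Laptm5, Cd68, Des and Tfap2c are named after their values were seen. RMA values have no 0, so no marker can be read as absent. The part of feeder fibroblasts, of stem cells and of differentiating cells in the rises of the matrix genes was not tested.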

How the data were processed

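Total RNA (250 ng per sample) of 2 wild-type and 2 knockout samples was hybridised to 1 array each. The deposited table holds log2 values of 35556 probe sets, for which the submitters' processing notes name affy and RMA as the authors' tools; versions and settings are not given in the sources used here. RMA corrects background, normalises arrays and summarises probes, which compresses differences among dim probe sets. Sample titles gave the groups and the replicate numbers. Of the probe sets, 21218 carry 1 gene symbol in the platform annotation, 1881 several and 12457 none; for each symbol the single-symbol probe set with the highest mean was used (18820 genes; 1386 had more than 1). The knockout was set against the wild type in a linear model with limma 3.58.1 under R 4.3.3 (eBayes with 2 residual and 4.70 prior degrees of freedom), two-sided, with Benjamini-Hochberg adjustment over all genes and a threshold of 0.05. The script was tested on simulated data. Summed linear levels add 2 to the power of each value. Gene neighbours came from the GRCm38.p6 annotation, whose relation to the array's build is not known.

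The members and gene lists were chosen with earlier results of these data known, so counts over them are descriptions. Every member is described; arrays' values are given for the fibril-forming collagens, the 12 largest changes, members whose wild-type arrays differ by more than 1 and others where useful. Up to 4 called genes per other list are named. Alternatives were a replicate block, an intensity trend or robust prior, filters on dim genes, quantile normalization, subtraction of array medians, averaged probe sets per gene, each sample left out and an adjusted p under 0.1.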

Additional observations from a re-analysis of the deposited data

How the results depend on the processing

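No member changed direction while called under any alternative. The counts of 24 higher and 1 lower among the 36 matrix genes were the same with the replicate block, a robust prior, averaged probe sets per gene and an adjusted p under 0.1; 23 were higher with an intensity trend (without Col6a1), 21 after quantile normalization (without Col6a1, Col8a1 and Fbln5) and 20 with array medians subtracted (without Col3a1, Col6a1, Col8a1 and Fbln5). Subtraction of array medians moved the median change of all genes from -0.05 to -0.22 and that of the matrix genes from 0.80 to 0.63, gave 8457 calls in all, 6392 of them lower, and raised the falls among pathway genes from 3 to 11. Averaging probe sets turned the uncalled change of P3h2 from -0.02 to a called rise of 0.74 (limma adjusted p = 0.00707). Colgalt1 and Adamts3 lost their calls in that setting, with changes of 0.04 and 0.28. Falls among pathway genes numbered 5 after quantile normalization and 6 at an adjusted p under 0.1. With genes below the median level left out, 12 matrix genes were kept, partly for their knockout level; 9 were higher and 0 lower, with a median of 1.40. With 1 sample left out at a time, 17 to 21 matrix genes were higher and 0 to 1 lower, the median change was 0.75 to 0.83, 21 to 27 pathway genes were higher and 1 to 4 lower, and all calls numbered 2430 to 4350 (1531 to 2405 higher, 899 to 1945 lower). In these fits a lone sample is assumed to vary like the rest. The labels do not say whether same-numbered samples were paired. Deviations of same-numbered samples correlated at 0.145 over genes. The replicate block gave 5093 calls, with 5 in place of 6 stem cell markers lower. The causes of these shifts were not tested. Signal over background was not known and limits what dim genes can show.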
